A study of Mus musculus with 18 samples.

Results

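Collagen genes were followed across skeletal muscle and heart of mice in which the oxygen sensor EglN1 was removed or inhibited. Members were all genes whose symbol in the platform annotation is Col, a number, the letter a and a number, each read from its brightest probe set. This gave 44 of the 19938 genes named by a single symbol. Expression was measured on 18 whole-transcript arrays, 3 in each of 6 groups, and the values are log2 intensities after robust multi-array averaging (RMA). Soleus, a slow calf muscle, and quadriceps, a mostly fast thigh muscle, came from C57BL/6 back-crossed mice with a floxed EglN1 gene and a Cre recombinase of skeletal muscle (KO), or with the Cre but unmodified EglN1 (WT). Both KO and WT mice received tamoxifen, which induces the Cre, for 3 days up to harvest, so tamoxifen and Cre are shared by all 12 muscle arrays and are no part of the KO difference. The series title speaks of smooth muscle while the sample labels say skeletal muscle; the sample labels are followed here, and which cells lost EglN1 rests on them. The promoter that drives the Cre is not given in the sources used here. Hearts came from mice labelled EglN1 WT that had received intraperitoneal vehicle or 50 mg/kg of FG-4497, a drug that blocks EglN enzymes. Each soleus array shares a number in the labels with 1 quadriceps array; these are read here as animal numbers, which gives 3 KO and 3 WT mice. KO replicates carry the same number in both muscles, whereas the WT mouse of soleus replicate 1, 2 and 3 gave quadriceps replicate 3, 1 and 2.

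Collagens are secreted proteins of triple helices. Fibrillar collagens such as types I, III and V form the load-bearing fibres of tendon and muscle connective tissue. Type IV forms the network of basement membranes around fibres and capillaries, type VI forms beaded filaments next to it, and FACIT collagens such as types XII and XIV sit on fibril surfaces. In muscle and heart, interstitial collagen is made chiefly by fibroblasts. Procollagen is modified by prolyl and lysyl hydroxylases that need oxygen, iron and oxoglutarate, as the EglN enzymes do, and genes of some of these enzymes are known targets of the hypoxia-inducible factors that EglN1 restrains.

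Array medians lay between 6.68 and 6.81, and within groups the arrays correlated with each other at r of 0.986 to 0.995 across probe sets. Egln1 read 11.03, 11.07 and 11.12 in KO soleus against 11.22 to 11.31 in WT, and 10.67 to 10.92 in KO quadriceps against 10.94 to 10.99, so KO arrays were lower without overlap, by small steps. Whether its probes lie in the deleted part is not given in the sources used here. Tissue labels fitted their markers: the log2 of the summed linear values of 6 slow-fibre genes was 16.0 to 16.1 in soleus and 10.2 to 11.9 in quadriceps, and that of 6 cardiomyocyte genes was 16.0 in every heart and at most 10.8 in muscle.

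A gene was tested where its mean over the arrays of a fit reached the 40th percentile of all probe-set means, 6.19 in muscle, 6.26 in heart and 6.23 over all 18 arrays. Of the 44 collagens, 40 passed in muscle, 39 in heart and 40 over all arrays. Col4a6, Col10a1, Col19a1 and Col28a1 passed in none of them, and Col12a1 passed in muscle but not in heart alone. By class, the members were 11 fibrillar, 8 of basement membrane and multiplexin type, 6 of type VI, 9 FACIT, 3 of types VIII and X, 4 transmembrane and 3 anchoring or other collagens. Between the 6 groups the means of Col12a1, which did not pass in heart, spanned 2.47 log2 units. Those of Col1a1 spanned 1.68, those of Col1a2 1.62 and those of Col8a1 1.25, while Col7a1, the anchoring-fibril collagen, spanned 0.10. Levels are compared here only within a gene, since probe sets differ in brightness. In these bulk samples, fewer cells of a type and less RNA per cell cannot be told apart.

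**Figure D1:**
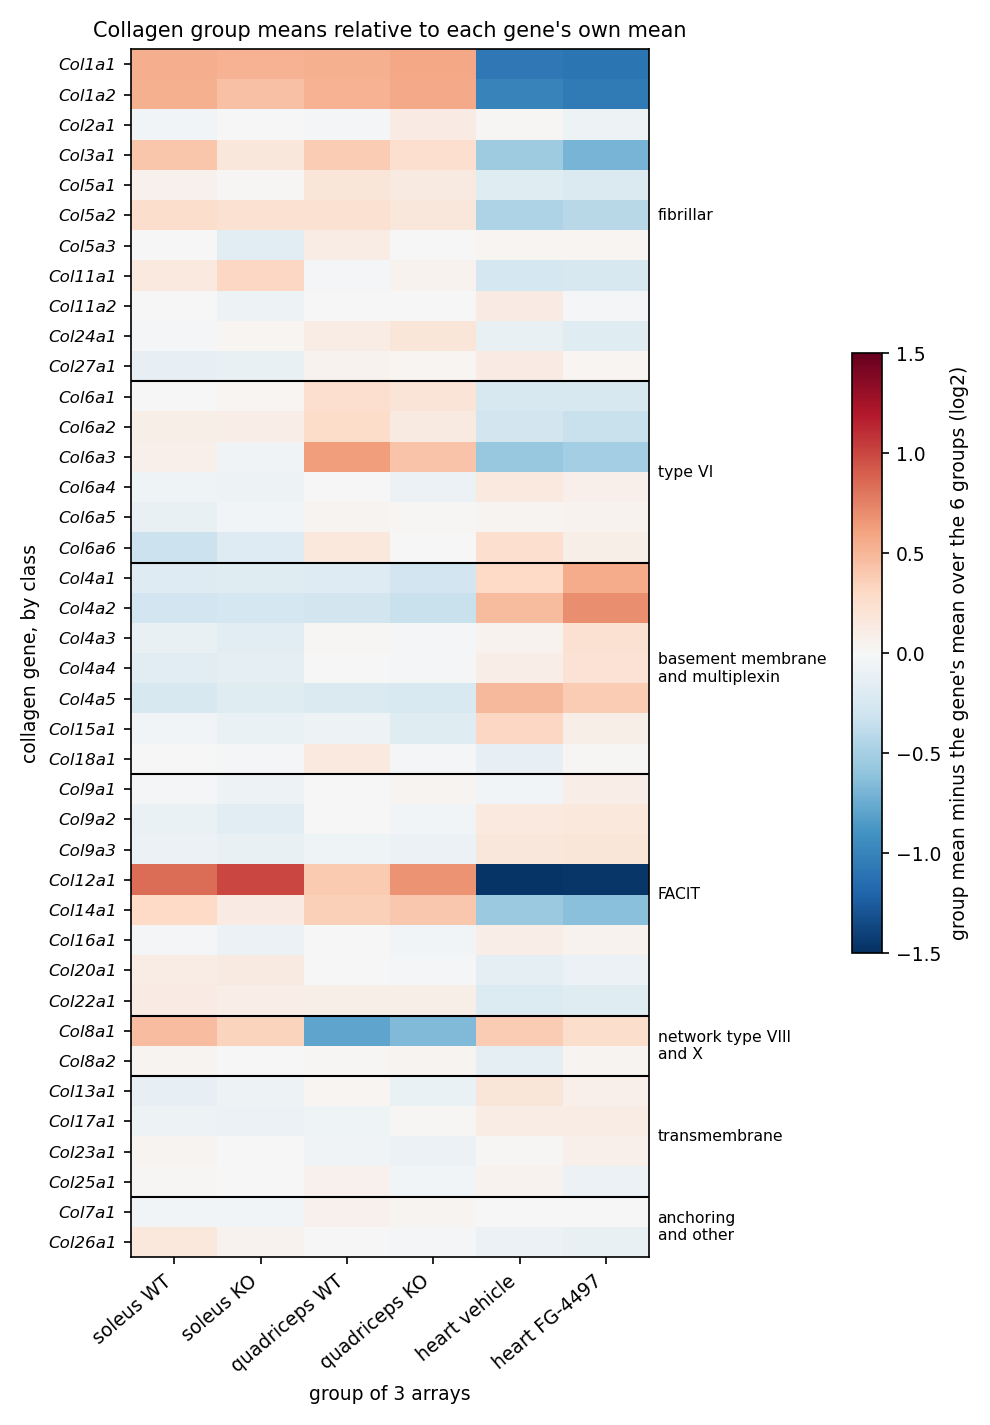
Group means of the 40 collagen genes tested in muscle, each minus the gene's own mean over the 6 groups (colour, log2 scale), with genes in rows by class and groups of 3 arrays in columns. Col1a1, Col1a2, Col3a1 and Col12a1 were lowest in both heart groups, Col4a1, Col4a2 and Col4a5 highest there, and Col8a1 lowest in both quadriceps groups.

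The first comparison asks whether loss of EglN1 in muscle changed collagen expression. No collagen passed the test in either muscle (limma, Benjamini-Hochberg adjusted p under 0.05): 0 of 40 in soleus, where 0.18% of all tested genes were called, and 0 of 40 in quadriceps, where 0.683% were called. The median collagen difference, KO minus WT, was -0.02 in soleus against 0.0009 over all tested genes, and -0.03 in quadriceps against -0.02 over all. Without adjustment, 0 collagens in soleus and 1 in quadriceps had p under 0.05, against 7.23% and 11.6% of all tested genes. The 95% intervals of 34 of the 40 collagens stayed within 1.5-fold and those of all 40 within 2-fold in each muscle. So changes of 2-fold or more lay outside the intervals for every tested member, while smaller ones could not be told from 0 for the most variable fibrillar genes. With 3 against 3 arrays, an exact permutation test of a single gene cannot go below p = 0.1, and the p-values given rest on limma's variance pooled over genes.

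**Figure D2:**
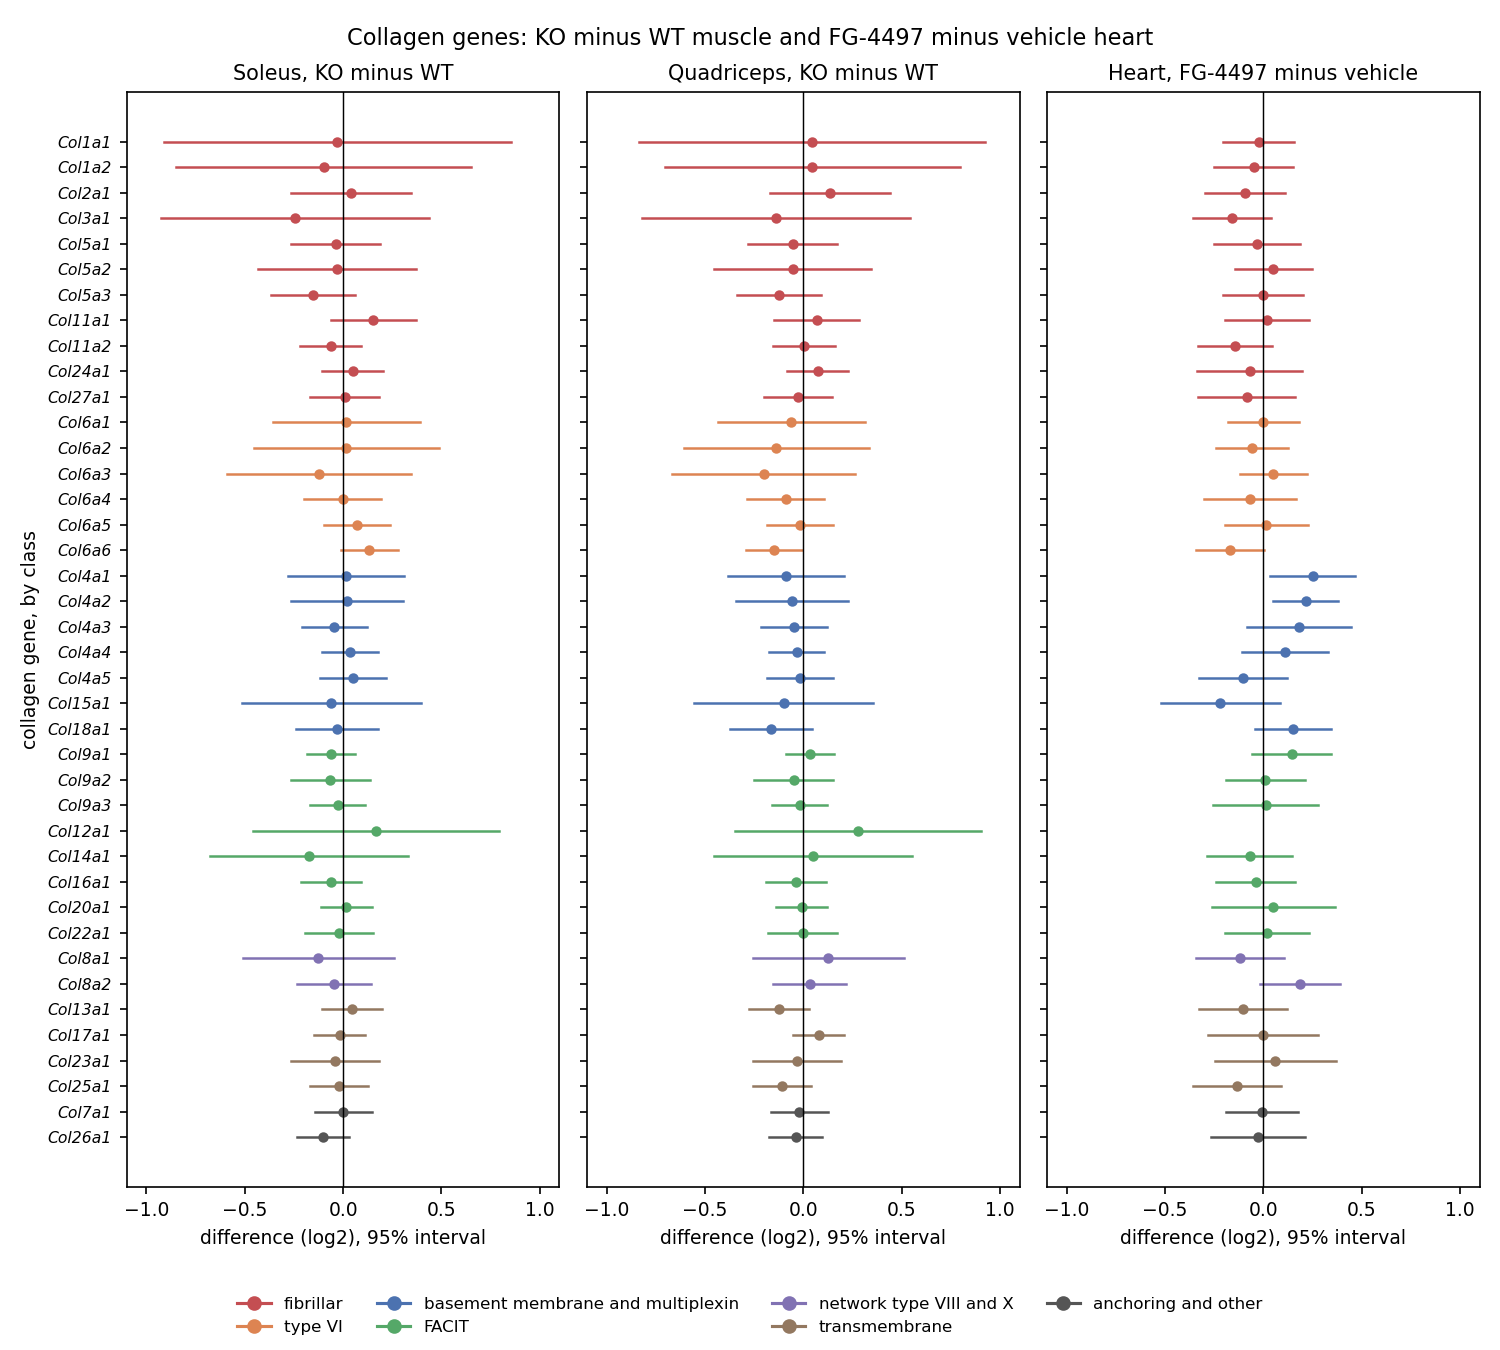
Differences of the tested collagen genes on the log2 scale (points) with 95% intervals (bars) for KO minus WT in soleus and quadriceps and for FG-4497 minus vehicle in heart, coloured by class. The widest muscle intervals were those of Col1a1, from -0.91 to 0.85 in soleus, and heart intervals stayed within 1.5-fold for all 39 genes.

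Among the fibrillar collagens, Col1a1 and Col1a2, the chains of type I collagen, differed by -0.03 ± 0.41 and -0.10 ± 0.35 (log2, standard error) in soleus and by 0.04 ± 0.41 and 0.05 ± 0.35 in quadriceps. Col3a1, the type III chain of pliable tissue, had the lowest soleus value, -0.24 ± 0.31 (adjusted p = 0.953), and differed by -0.14 ± 0.31 in quadriceps. Col5a1, which sets fibril diameter with type I, differed by -0.04 ± 0.10 and -0.05 ± 0.10. The fibrillar medians were -0.03 and 0.004. Col12a1, a FACIT collagen of tendon and muscle sheaths, had the highest difference in both muscles, 0.17 ± 0.29 in soleus (adjusted p = 0.9746) and 0.28 ± 0.29 in quadriceps (adjusted p = 0.805).

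In the basement membrane class, Col4a1 and Col4a2, the chains of the ubiquitous type IV trimer, differed by 0.02 ± 0.14 and 0.02 ± 0.13 in soleus and by -0.09 ± 0.14 and -0.06 ± 0.13 in quadriceps. Col15a1 and Col18a1, multiplexins that bridge basement membrane and interstitium, differed by -0.06 ± 0.21 and -0.03 ± 0.10 in soleus and by -0.10 ± 0.21 and -0.17 ± 0.10 in quadriceps. All 7 tested members of this class were below 0 in quadriceps, between -0.17 and -0.01, and none passed. In quadriceps 28 of all 40 tested collagens were below 0, including all 6 of type VI, and the median over all tested genes was -0.02. Col6a1, Col6a2 and Col6a3, the classical type VI trimer, differed by 0.02, 0.02 and -0.12 in soleus and by -0.06, -0.14 and -0.20 in quadriceps, with standard errors of 0.17 to 0.22. Col6a3 at -0.20 ± 0.22 was the lowest quadriceps value (adjusted p = 0.811).

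Col6a6, an alternative type VI chain that can take the place of Col6a3, was 1 of 40 members whose KO and WT arrays did not overlap in either muscle, against 3.12% of all tested genes, so this count is near the background. Its 2 muscles went opposite ways, as those of 0.323% of all tested genes did. In soleus it read 7.56, 7.62 and 7.53 in KO and 7.53, 7.34 and 7.44 in WT, a difference of 0.13 ± 0.07 (limma, adjusted p = 0.733). In quadriceps it read 7.72, 7.77 and 7.83 in KO and 7.90, 8.004 and 7.87 in WT, a difference of -0.15 ± 0.07 (adjusted p = 0.404). KO arrays were thus above WT in soleus and below WT in quadriceps, with the nearest arrays at 7.535 and 7.534 in soleus and at 7.834 and 7.869 in quadriceps. Of the KO effect in soleus minus that in quadriceps, no collagen was called (0 of 40, against 0% of all tested genes), and Col6a6 differed by 0.29 ± 0.08 (limma, adjusted p = 0.634). A second, dimmer probe set of the gene gave 0.005 in soleus and -0.16 in quadriceps, so it did not show the soleus difference.

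The KO mice differed among themselves in the type I and III genes, in the same order in both muscles. In soleus Col1a1 read 10.80, 11.12 and 9.44 in KO replicates 1, 2 and 3, and 10.28, 10.47 and 10.69 in WT. In quadriceps it read 10.45, 11.40 and 9.67 in KO and 10.49, 10.09 and 10.81 in WT. The KO mouse of replicate 2 was the highest and that of replicate 3 the lowest of all 6 mice in each muscle, 3.21-fold apart in soleus and 3.33-fold in quadriceps, and the WT mice lay between them. Col1a2 followed with 10.41, 10.74 and 9.23 in KO soleus and 10.14, 10.995 and 9.63 in KO quadriceps, where WT arrays lay between 9.89 and 10.54. Col3a1 read 9.33, 9.84 and 8.44 in KO soleus and 9.13, 10.02 and 8.69 in KO quadriceps, against 9.21 to 9.64 in all WT arrays. The proximal promoter of Col1a2, whose chain joins those of Col1a1 in type I collagen, is given here because this gene carries the pattern and was matched in the RefSeq promoter table (GRCm38.p6). It spans the 250 bases before the gene start, chr6:4505368-4505617 on the plus strand. Capitals mark ACGTG, the core of a hypoxia response element, and CCAAT and GGGCGG, all searched on both strands.
Col1a2: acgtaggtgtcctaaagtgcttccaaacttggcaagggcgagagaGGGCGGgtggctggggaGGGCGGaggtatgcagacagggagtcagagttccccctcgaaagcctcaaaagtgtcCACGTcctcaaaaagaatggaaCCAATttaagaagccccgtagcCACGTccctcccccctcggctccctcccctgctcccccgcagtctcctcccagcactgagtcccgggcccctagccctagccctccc
The window holds 2 ACGTG matches on the minus strand (read as CACGT), 1 CCAAT and 2 GGGCGG. Such matches are a description of the letters and not of a bound site.

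The same ordering of KO mice held for much of the family. The highest and the lowest KO mouse were the same in soleus and quadriceps for 18 of 40 collagens (45%), against 21.3% of all tested genes. For the WT mice the count was 6 of 40 (15%), against 21.7% of all tested genes. In 16 of the 18 the KO mouse of replicate 2 was highest and that of replicate 3 lowest, an order that 5.97% of all tested genes had. This description was chosen after the values were seen and has no test. The 16 were Col1a1, Col1a2, Col3a1, Col5a1, Col5a2, Col5a3 and Col11a1 of the fibrillar class, Col6a1, Col6a2 and Col6a3 of type VI, Col4a1, Col4a2 and Col15a1 of the basement membrane class, the FACIT Col12a1, and Col8a1 and Col8a2 of type VIII. None of the 4 transmembrane collagens was among them. Col12a1 read 9.01, 9.09 and 7.77 in KO soleus and 8.21, 8.76 and 7.92 in KO quadriceps. Col6a3 read 8.70, 8.91 and 8.10 in KO soleus and 9.09, 9.54 and 8.52 in KO quadriceps. Col15a1 read 8.74, 9.01 and 8.10 in KO soleus and 8.57, 8.97 and 8.09 in KO quadriceps. In each of these the KO mouse of replicate 3 was below all WT arrays of the same muscle except for Col12a1 in quadriceps, where it lay above WT replicate 2 at 7.84. The median range (highest minus lowest, log2) of the 3 KO arrays was 0.27 for collagens and 0.16 for all tested genes in soleus, and 0.20 and 0.17 in quadriceps. Among WT arrays it was 0.22 and 0.15 in soleus and 0.15 and 0.15 in quadriceps.

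**Figure D3:**
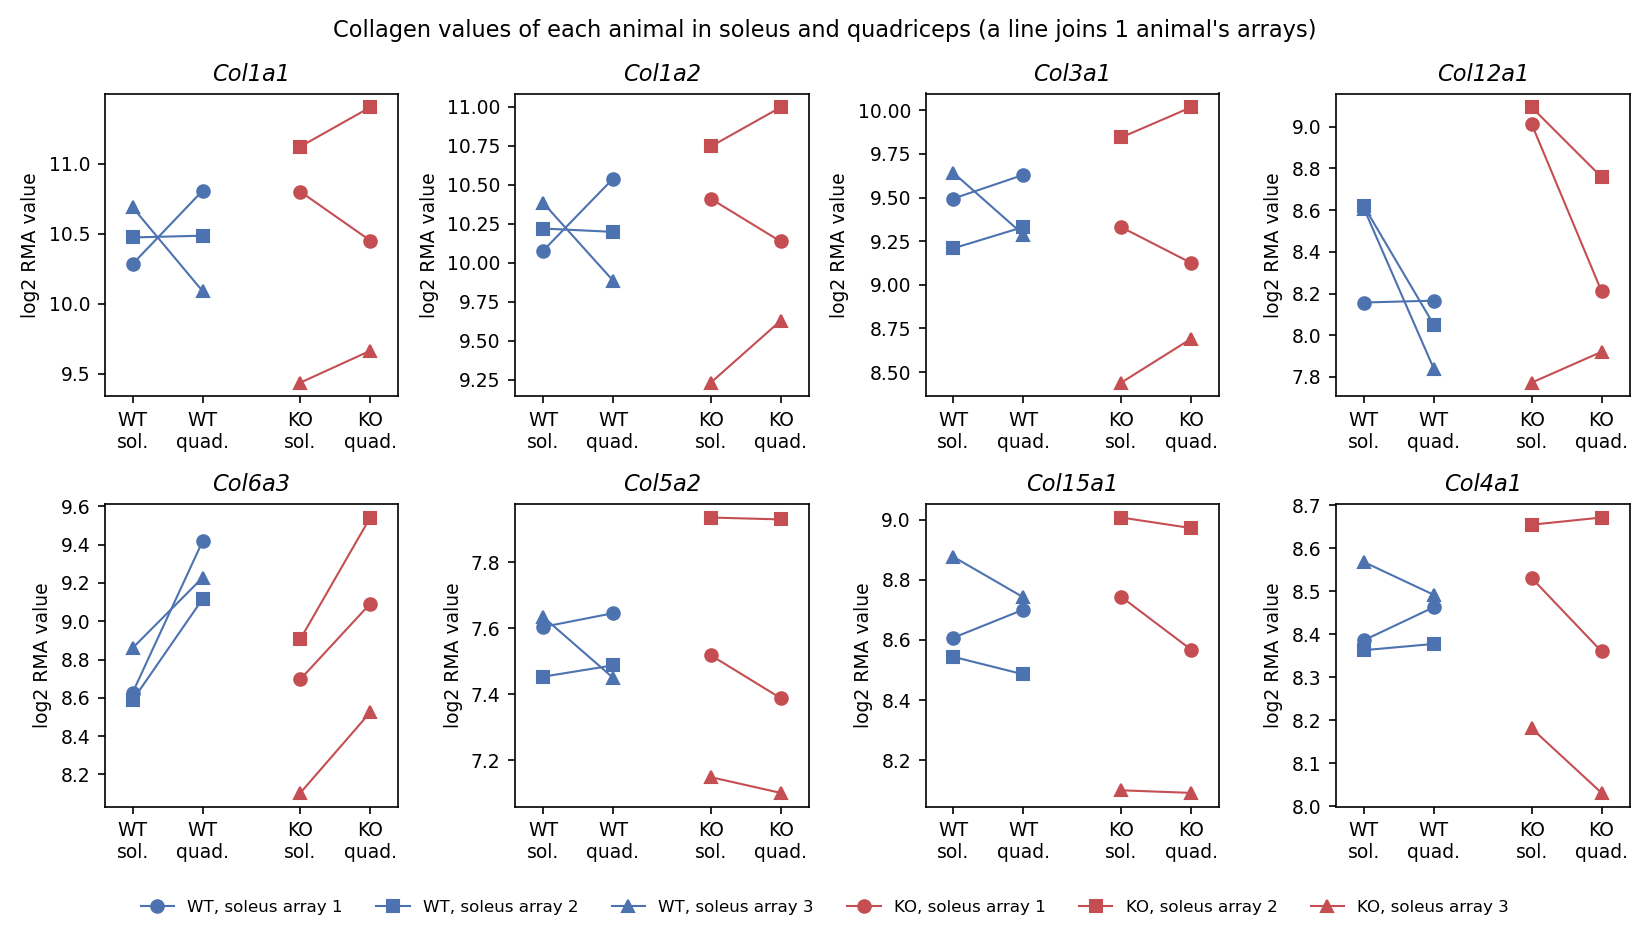
Log2 values of 8 collagen genes in soleus and quadriceps of the 3 WT mice (blue) and 3 KO mice (red), with a line joining the arrays read as 1 mouse. In every panel the KO mouse of replicate 2 (squares) was the highest and that of replicate 3 (triangles) the lowest KO mouse in both muscles.

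Part of the other genes of the collagen pathway had the same order, which 5.97% of all tested genes had. The order with KO replicate 2 highest and replicate 3 lowest in both muscles held for 7 of 18 tested genes of collagen hydroxylation and folding, among them Plod1 and Plod2, lysyl hydroxylases, and P4hb, a subunit of prolyl 4-hydroxylase. It held for 4 of 10 genes of processing and crosslinking, among them Pcolce, the enhancer of procollagen C-proteinase. It held for 9 of 18 fibril partners, among them Sparc, a collagen-binding matricellular protein, and Postn (periostin). Sparc read 12.64, 12.95 and 11.67 in KO soleus and 12.36, 12.89 and 11.87 in KO quadriceps. It held for 2 of 13 TGF-beta and profibrotic regulators and for 3 of 9 collagen receptors. Among cell type markers, the order held for 3 of 8 tendon genes (Tnmd, Mkx and Kera), 3 of 7 smooth muscle and pericyte genes, 2 of 7 endothelial genes, 1 of 8 fibroblast genes and 0 of 7 macrophage genes. Of 7 fast fibre genes, 1 had the order. No tested slow fibre (of 6), adipocyte (of 5), cardiomyocyte (of 6), epicardial (of 3) or cartilage (of 1) gene had it. The log2 of the summed values of the 8 tendon markers was 12.95, 13.08 and 11.95 in KO soleus and 12.29, 12.95 and 12.31 in KO quadriceps, against 12.29 to 12.72 and 11.86 to 12.61 in WT, with all 8 above the test level. That of the 8 fibroblast markers was 13.97, 14.17 and 13.67 in KO soleus and 14.02, 14.11 and 14.12 in KO quadriceps, against 13.88 to 14.02 and 13.76 to 14.04 in WT. That of the 7 macrophage markers was 10.76, 11.13 and 10.34 in KO soleus and 10.69, 11.28 and 11.12 in KO quadriceps, against 10.63 to 10.76 and 10.71 to 11.13 in WT. In soleus these 3 sums were highest in KO replicate 2 and lowest in replicate 3, whereas in quadriceps replicate 3 was not the lowest in any of the 3. The sum of the 3 measured Schwann cell markers (of 6) followed the collagen order in both muscles, with 11.78, 11.96 and 11.62 in KO soleus and 10.91, 11.07 and 10.82 in KO quadriceps, against 11.63 to 11.86 and 10.66 to 10.84 in WT. Gene by gene, the order held for 1 of these 3, Pmp22. The sum was mostly Pmp22, whose KO soleus mean was 11.65, against 7.57 for Mbp and 7.01 for Sox10. The endothelial sum (7 markers) was 12.48, 12.40 and 12.25 in KO soleus and 11.74, 11.76 and 11.52 in KO quadriceps, against 12.16 to 12.46 and 11.49 to 11.70 in WT. The smooth muscle and pericyte sum (7 markers) was 12.80, 12.78 and 12.67 in KO soleus and 12.17, 12.18 and 12.10 in KO quadriceps, against 12.58 to 12.79 and 11.90 to 12.01 in WT. In both of these lists replicate 3 was the lowest KO mouse in each muscle, and replicate 2 the highest in quadriceps alone. The part of these cell types in the collagen order was not tested.

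The KO comparison depends on these mice for its size but not for its calls. Without the KO mouse of replicate 3 in both muscles, Col1a1 differed from WT by 0.48 and 0.47 in soleus and quadriceps and Col12a1 by 0.59 and 0.47, with no call. Without the KO mouse of replicate 2, Col1a1 differed by -0.36 and -0.40 and Col3a1 by -0.56 and -0.51, again with no call. The adjusted p of these 3 genes ranged from 0.259 to 1.00 in soleus and from 0.306 to 0.989 in quadriceps over all 21 alternatives in each muscle. In the pathway lists (20 genes of hydroxylation and folding, 14 of processing and crosslinking, 19 fibril partners, 10 receptors and 14 regulators), no tested gene was called in either muscle.

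The next comparison is between the muscles themselves. In WT mice, 2 of 40 collagens were higher in soleus than in quadriceps, against 21.3% of all tested genes, and 3 of 40 were lower, against 24.4%. In KO mice, 3 of 40 were higher, against 21.9%, and 1 of 40 was lower, against 20%. Read against these shares, few collagens were called in either direction. The median collagen difference was -0.03 in WT and -0.05 in KO, against -0.01 and 0.01 over all tested genes. Col8a1 and Col6a6 were called in both genotypes.

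Col8a1, a short-chain network collagen of vessel walls and other matrices, had the largest difference. It read 8.63, 8.47 and 8.70 in WT soleus and 7.42, 7.34 and 7.28 in WT quadriceps. In KO mice it read 8.57, 8.84 and 7.997 in soleus and 7.43, 7.82 and 7.17 in quadriceps. Every soleus array was above every quadriceps array. The gene was 2.38-fold higher in WT soleus (log2 difference 1.25 ± 0.16, limma adjusted p = 3.33e-05) and 1.99-fold higher in KO soleus (0.99 ± 0.16, adjusted p = 0.000267). Its partner Col8a2 differed by 0.03 in WT and by -0.05 in KO. The 250 bases before its start, chr16:57754738-57754987 on the minus strand (RefSeq, GRCm38.p6), are shown as those of the member that differed most between the muscles, with 4 GGGCGG matches in capitals, all read as CCGCCC.
Col8a1: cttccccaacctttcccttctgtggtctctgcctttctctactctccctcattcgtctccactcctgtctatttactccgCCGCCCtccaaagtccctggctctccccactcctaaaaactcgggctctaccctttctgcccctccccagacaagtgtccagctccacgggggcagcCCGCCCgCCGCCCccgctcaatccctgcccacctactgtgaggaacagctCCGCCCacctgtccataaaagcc
Smooth muscle and pericyte markers (7 of 7 higher in WT soleus, limma adjusted p under 0.05, median 0.74) and endothelial markers (6 of 7 higher, median 0.70) were also higher in soleus. Of all tested genes, 21.3% were. Other marker lists differed as well. Higher were 6 of 6 slow fibre genes (median 6.07), 2 of 3 Schwann cell genes (median 0.74) and 2 of 8 tendon genes. Lower were 6 of 7 fast fibre and 2 of 7 macrophage genes. Of 8 fibroblast genes, 2 were higher and 2 lower. The log2 of the summed smooth muscle and pericyte markers was 12.58 to 12.79 in WT soleus and 11.90 to 12.01 in WT quadriceps, and that of the endothelial markers 12.16 to 12.46 and 11.49 to 11.70, all markers being above the test level. The part of any of these cell types in the Col8a1 difference was not tested.

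Col6a6 went the other way. It read 7.34 to 7.53 in WT soleus and 7.87 to 8.004 in WT quadriceps, and 7.53 to 7.62 and 7.72 to 7.83 in KO, without overlap. It was 1.40-fold lower in WT soleus (-0.49 ± 0.06, limma adjusted p = 2.19e-05) and 1.15-fold lower in KO soleus (-0.20 ± 0.06, adjusted p = 0.016). The second probe set of the gene gave -0.80 and -0.64. The KO call was lost with animal as a fixed replicate block (adjusted p = 0.0512) and without KO replicate 3 of soleus or quadriceps or both, with an adjusted p from 6.81e-05 to 0.142 over 17 alternatives, while the WT call held in all 17. The mean of both probe sets gave -0.42 in KO. The promoter of Col6a6, chr9:105828086-105828335 on the minus strand (RefSeq, GRCm38.p6), is shown because this member differed between muscles and between heart and soleus. Capitals mark 1 ACGTG, 3 GCGTG and 2 GGGCGG matches on either strand.
Col6a6: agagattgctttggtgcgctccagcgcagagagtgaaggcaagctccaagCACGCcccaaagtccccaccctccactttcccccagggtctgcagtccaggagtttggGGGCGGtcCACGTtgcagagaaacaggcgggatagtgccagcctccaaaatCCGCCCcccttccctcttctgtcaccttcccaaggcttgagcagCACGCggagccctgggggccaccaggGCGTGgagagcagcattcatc
Among the 38 promoters matched to 35 of the 44 collagen genes, ACGTG occurred in 13.2% against 16.6% of all 32851 promoters of the same 250 bases, GCGTG in 21.1% against 28.2%, CCAAT in 34.2% against 33.8%, TATAAA in 13.2% against 12.4% and GGGCGG in 57.9% against 32.7%, counting both strands.

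Col6a3, the large chain of the classical type VI trimer, read 8.63, 8.59 and 8.86 in WT soleus and 9.12, 9.23 and 9.42 in WT quadriceps. It was 1.48-fold lower in WT soleus (-0.56 ± 0.20, limma adjusted p = 0.0319). In KO mice it differed by -0.48 ± 0.20 (adjusted p = 0.0648). With animal as a fixed replicate block, which compares the muscles within mice, the adjusted p was 0.00289 in WT and 0.00109 in KO, so the KO difference then passed. Over 17 alternatives each, the adjusted p ranged from 0.00289 to 0.218 in WT and from 0.00109 to 0.337 in KO. Leaving out WT soleus replicate 1 or 2 or WT quadriceps replicate 2 or 3 ended the WT call, as did fitting without the animal block or without the filter on low values. The other trimer chains, Col6a1 and Col6a2, differed by -0.25 ± 0.16 and -0.19 ± 0.20 in WT without a call.

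The remaining calls were small. In WT, Col26a1 was 0.15 ± 0.06 higher in soleus (limma adjusted p = 0.039) and Col4a4, a minor type IV chain, 0.18 lower (-0.18 ± 0.06, adjusted p = 0.0276). In KO, Col11a1, a minor fibrillar chain, was 0.25 ± 0.09 higher (adjusted p = 0.0402) and the FACIT Col20a1 0.15 ± 0.05 higher (adjusted p = 0.0435). Each of these was lost in 9 to 13 of the alternatives run for it. The fixed replicate block ended the calls of Col26a1, Col4a4 and Col20a1 and kept 5 collagens called in WT and 4 in KO, with Col11a1 and Col12a1 joining in WT and Col6a3 and Col14a1 in KO. The type I and III genes differed little between the muscles: Col1a1 by 0.02 ± 0.37, Col1a2 by 0.02 ± 0.32 and Col3a1 by 0.03 ± 0.29 in WT.

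Over the 5 pathway lists, 15 of 68 tested genes were higher in WT soleus (22.1%, against 21.3% of all tested genes) and 11 were lower (16.2%, against 24.4%), so the lists as a whole did not exceed the background. Of 18 tested hydroxylation and folding genes, 5 were higher and 3 lower in WT soleus. P3h2, a prolyl 3-hydroxylase with a preference for type IV collagen, was 7.09-fold higher (2.83 ± 0.13, limma adjusted p = 2.92e-09), and P4ha1, a catalytic subunit of prolyl 4-hydroxylase, was 1.504-fold lower (-0.59 ± 0.06, adjusted p = 3.09e-06). Of 18 fibril partners, 4 were higher and 1 lower. Postn was 6.13-fold higher (2.62 ± 0.38, adjusted p = 8.54e-05). Of 10 processing and crosslinking genes 0 were higher and 1 lower, of 9 receptors 2 and 2, and of 13 TGF-beta and profibrotic regulators 4 and 4. In KO mice P3h2 and Postn were 7.05-fold and 4.14-fold higher in soleus.

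**Figure D4:**
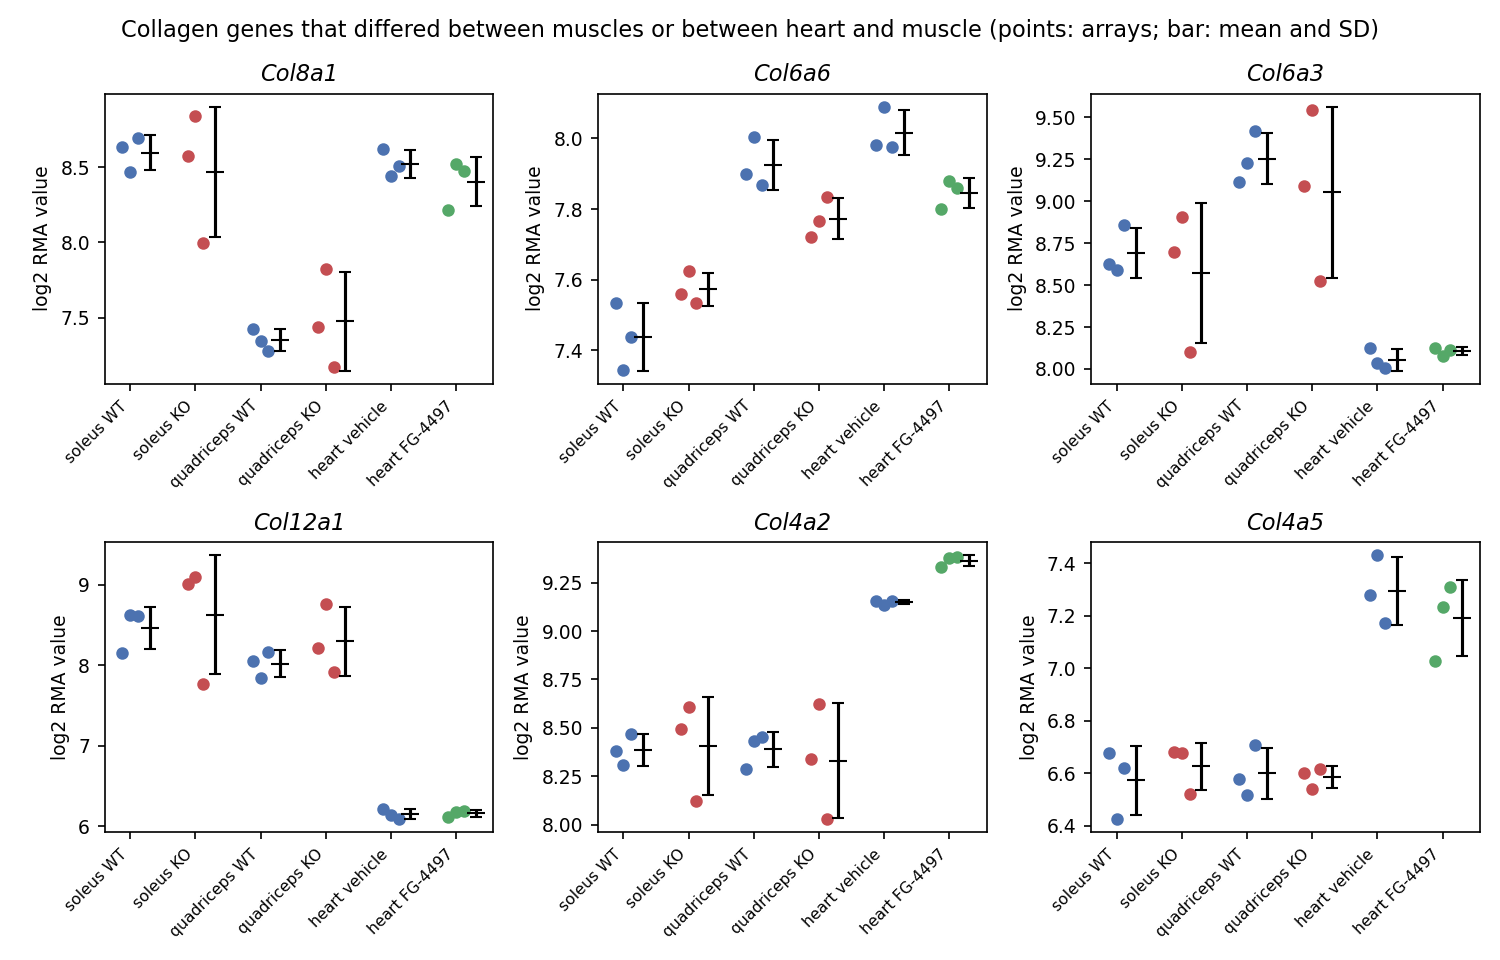
Log2 values of 6 collagen genes on all 18 arrays (points), with the mean and standard deviation of each group of 3 (bars). Col8a1 was lowest in the quadriceps groups, Col6a6 and Col6a3 were lower in soleus than in quadriceps of WT mice, and Col12a1 was low while Col4a2 and Col4a5 were high in the hearts.

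FG-4497 addressed whether drug inhibition of EglN enzymes changed collagen expression in the heart. No collagen passed the test (0 of 39, against 1.77% of all tested genes), and all 39 intervals stayed within 1.5-fold. The median collagen difference, FG-4497 minus vehicle, was -0.01 against -0.002 over all tested genes. The 2 collagens with the lowest p were the type IV pair. Col4a2 read 9.15, 9.14 and 9.15 in vehicle hearts and 9.33, 9.38 and 9.38 with FG-4497, a difference of 0.22 ± 0.07 (limma, adjusted p = 0.259). Col4a1 read 9.01, 8.83 and 8.99 in vehicle hearts and 9.06, 9.16 and 9.36 with FG-4497, a difference of 0.25 ± 0.10 (adjusted p = 0.35). In both genes every treated heart was above every vehicle heart. Over 13 alternatives the adjusted p of Col4a2 ranged from 0.156 to 0.5 and that of Col4a1 from 0.22 to 0.644. Their gene starts lie 21 bases apart on opposite strands (RefSeq, GRCm38.p6), and the pair is known for a shared promoter between them.

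Col15a1 had the lowest difference, -0.22 ± 0.14 (limma adjusted p = 0.689), with 9.25, 8.95 and 8.91 in vehicle hearts and 8.57, 8.78 and 9.09 with FG-4497, which overlapped. Col18a1 differed by 0.15 ± 0.09. The type I genes stayed close to 0, Col1a1 at -0.02 ± 0.08 and Col1a2 at -0.05 ± 0.09, and Col3a1 was at -0.16 ± 0.09. Col5a1 was at -0.03 ± 0.10, and Col6a1, Col6a2 and Col6a3 were at -0.0004, -0.06 and 0.05. Treated and vehicle hearts did not overlap for 6 of 39 collagens, which is 3 above (Col4a1, Col4a2 and Col8a2) and 3 below (Col3a1, Col6a6 and Col11a2). Of all tested genes, 15.5% did not overlap, and 6 of 39 is near that share.

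Enzymes that modify collagen did pass the test in the treated hearts. Plod2, the lysyl hydroxylase of collagen telopeptides, read 9.31, 8.85 and 8.99 in vehicle hearts and 10.48, 10.38 and 10.25 with FG-4497, 2.49-fold higher (1.32 ± 0.12, limma adjusted p = 0.000215). Lox, the lysyl oxidase that crosslinks collagen, read 7.09, 7.07 and 6.96 in vehicle hearts and 8.04, 7.75 and 8.01 with FG-4497, 1.86-fold higher (0.90 ± 0.10, adjusted p = 0.000727). P4ha2, a catalytic subunit of prolyl 4-hydroxylase, rose 1.65-fold (0.72 ± 0.08, adjusted p = 0.000597). These were 2 of 18 tested genes of hydroxylation and folding and 1 of 11 of processing and crosslinking, with none lower. Smad7, an inhibitor of TGF-beta signalling, rose 2.30-fold (1.202 ± 0.12, adjusted p = 0.000466), as 1 of 13 regulators. Postn fell, with a difference of -0.42 ± 0.08 (adjusted p = 0.0314), as 1 of 18 fibril partners. No receptor of 9 was called. Over the 5 pathway lists, 4 of 69 tested genes were higher (5.8%) and 1 was lower (1.4%). Of all 13431 tested genes, 174 were higher and 64 lower, 1.77% in both directions together. In KO muscle, Plod2, Lox and P4ha2 differed by -0.06, -0.01 and -0.09 in soleus and by -0.003, 0.41 and -0.06 in quadriceps, with no call. The hearts and muscles belong to separate experiments with different agents, and the difference between them was not tested. Of the marker lists, 1 of 7 endothelial genes (Cldn5) and 1 of 4 epicardial genes (Wt1) rose in treated hearts, against 1.77% of all tested genes called. The list medians were -0.12 and -0.15, with uncalled differences of -0.33 for Tek, -0.19 for Tie1, -0.19 for Emcn, -0.61 for Upk3b and -0.34 for Msln, and 0.32 for Kdr. Further, 0 of 7 fibroblast and 0 of 7 macrophage genes were called.

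**Figure D5:**
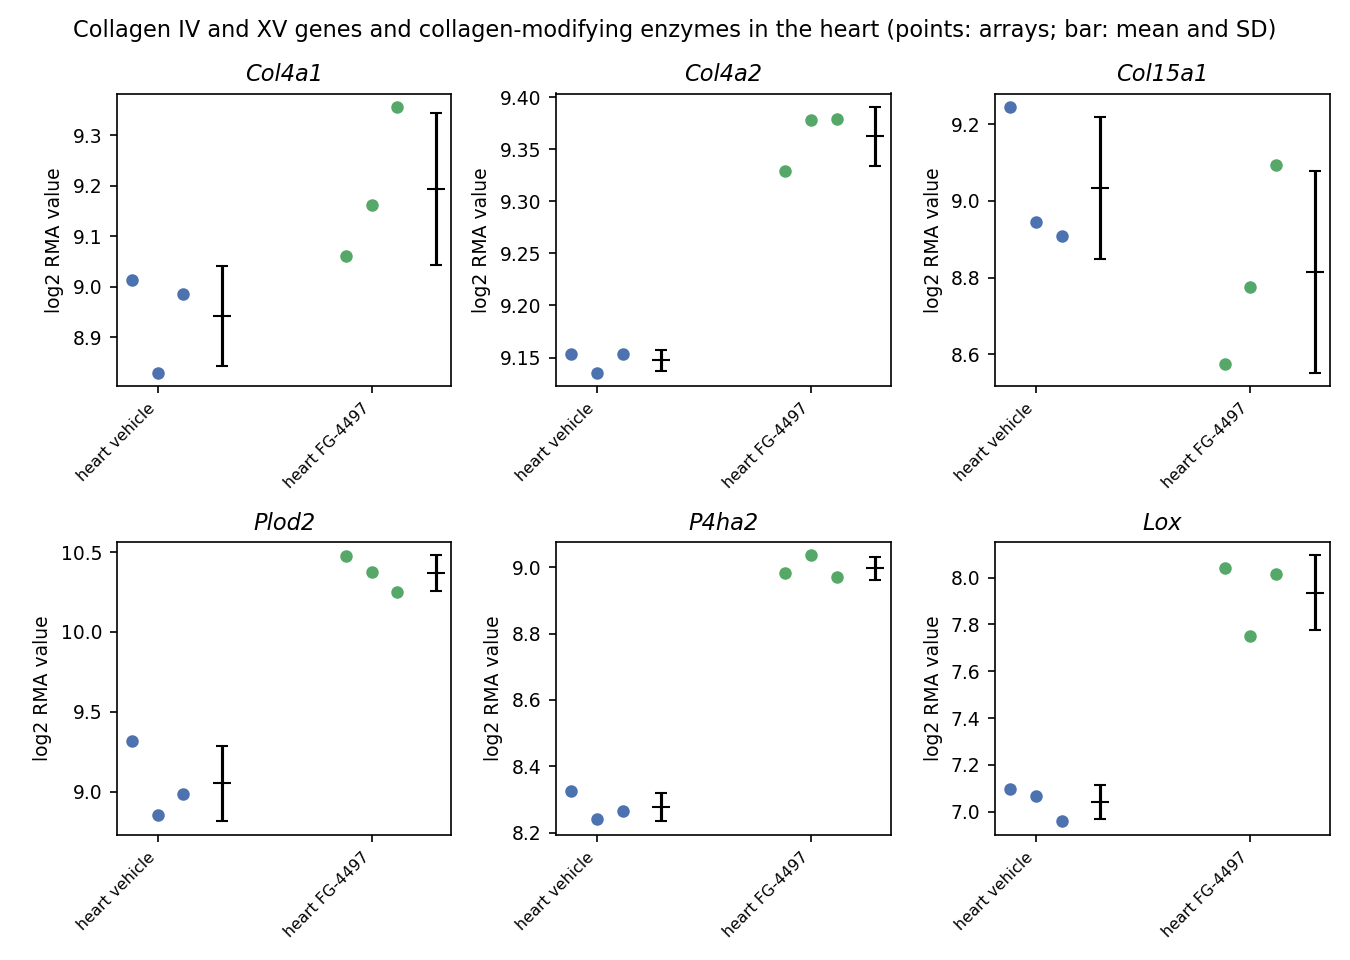
Log2 values on the 3 vehicle (blue) and 3 FG-4497 (green) heart arrays for Col4a1, Col4a2 and Col15a1 and for the collagen-modifying enzymes Plod2, P4ha2 and Lox, with the group mean and standard deviation (bars). The enzymes separated by 0.72 to 1.32 log2 units, Col4a1 and Col4a2 by 0.25 and 0.22 without a call, and Col15a1 overlapped.

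The last comparison set vehicle hearts against WT muscle. Tissue and experiment cannot be told apart here, since the hearts belong to another experiment; the labels give no tamoxifen for them. Of 40 tested collagens, 9 were higher in heart than in WT soleus, against 29.6% of all tested genes, and 10 were lower, against 27.2%. Against WT quadriceps, 5 were higher, against 32%, and 13 were lower, against 31.3%. The lower calls include Col12a1, whose heart values lie below the test level; without it 9 and 12 remain. Both comparisons use the same 3 vehicle hearts, so they are not independent of each other. By class, the fibrillar collagens held 5 and 6 of the lower calls of 11 tested, against 1 and 0 higher calls, and the basement membrane class held 4 and 3 of the higher calls of 7 tested, against 0 and 1 lower.

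The type I genes were the clearest fibrillar members. Col1a1 read 8.79, 8.91 and 8.87 in vehicle hearts, against 10.28 to 10.69 in WT soleus and 10.09 to 10.81 in WT quadriceps. It was 3.09-fold lower than in soleus (-1.63 ± 0.37, limma adjusted p = 0.00104) and 3.04-fold lower than in quadriceps (-1.61 ± 0.37, adjusted p = 0.000958). Col1a2 was 2.92-fold and 2.88-fold lower. Col3a1 was 1.94-fold and 1.89-fold lower, and Col5a2, a chain that joins type I fibrils, 1.66-fold and 1.62-fold lower. Heart and muscle arrays did not overlap for any of these. Col11a1 differed by -0.41 ± 0.10 from soleus and by -0.24 ± 0.10 from quadriceps, both called, the latter in 6 of 13 alternatives (limma adjusted p from 0.00774 to 0.168).

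The FACIT collagen Col12a1 was close to background in the hearts. It read 6.22, 6.15 and 6.10 in vehicle hearts, against 8.16, 8.62 and 8.61 in WT soleus and 8.05, 7.84 and 8.17 in WT quadriceps. All 3 heart arrays were below the test level of 6.23, so the gene was tested through its muscle values alone and its heart level is a bound. Taken against that level, the WT means were at least 2.23 log2 units higher in soleus and at least 1.79 in quadriceps; since the filter let the gene in through muscle, no p-value is given for it. Col14a1, another FACIT member, was 1.81-fold and 1.89-fold lower in heart. Of type VI, Col6a3 was 1.56-fold lower than in soleus and 2.29-fold lower than in quadriceps, while Col6a1 and Col6a2 were lower against quadriceps, by -0.50 and -0.55 on the log2 scale, with a call, and differed by -0.25 and -0.36 from soleus without one. Without WT quadriceps replicate 3 neither Col6a1 nor Col6a2 was called, and Col6a2 was also lost without vehicle heart replicate 1 or 3 or WT quadriceps replicate 2.

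Of the 5 tested type IV genes, Col4a1, Col4a2 and Col4a5 were called higher in heart against both muscles, Col4a4 against soleus and Col4a3 against neither. Col4a2 read 9.14 to 9.15 in vehicle hearts, 8.31 to 8.47 in WT soleus and 8.29 to 8.45 in WT quadriceps, and was 1.69-fold higher against each (0.76 ± 0.12 and 0.76 ± 0.12, limma adjusted p = 3.83e-05 against soleus). Col4a1 was 1.42-fold and 1.41-fold higher. Col4a5, an X-linked type IV chain, read 7.28, 7.43 and 7.17 in vehicle hearts and 6.42 to 6.68 in WT soleus, and was 1.65-fold and 1.62-fold higher. Col15a1 differed by 0.36 ± 0.21 and 0.39 ± 0.21 without a call. Another higher call against quadriceps was the FACIT Col9a3, at 0.24 ± 0.09, which was called in 7 of 14 alternatives. Col6a6 was 1.49-fold higher in heart than in soleus (0.58 ± 0.06, adjusted p = 4.86e-07) and differed by 0.09 ± 0.06 from quadriceps. Col8a1 was 2.26-fold higher in heart than in quadriceps (1.18 ± 0.17) and differed by -0.07 ± 0.17 from soleus. Its vehicle heart values, 8.62, 8.44 and 8.51, lay within the WT soleus range of 8.47 to 8.70 but for replicate 2.

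Marker genes of other cell types differed between heart and muscle as well. Of the 4 tendon markers above the test level in heart and muscle (Scx, Fmod, Thbs4 and Comp), 4 were lower in heart than in WT soleus and 3 lower than in WT quadriceps. The other 4 (Tnmd, Mkx, Chad and Kera) were below that level in heart, so their heart levels are bounds. The log2 of their summed values was 9.58 to 9.78 in vehicle hearts, with 4 of 8 above the test level, and 12.29 to 12.72 in WT soleus. Tnmd, a defining tendon marker, was below the test level in every heart (5.44 to 5.93). All 7 endothelial markers were higher in heart against each muscle, with medians of 1.101 and 1.61. Of 8 fibroblast markers, 1 was higher and 2 lower against each muscle. In each case 1 of the 2 lower markers was Fap. Its vehicle heart mean of 5.97 lay below the test level, so it was tested through muscle and its heart level is a bound. The summed level of the 8 fibroblast markers was 13.89 to 13.98 in vehicle hearts and 13.88 to 14.02 in WT soleus. All 7 macrophage markers were higher in heart than in WT soleus and 3 of 7 higher than in WT quadriceps. Beside these marker counts, 29.6% of all tested genes were higher and 27.2% lower in heart than in soleus. Against quadriceps the shares were 32% and 31.3%. The part of tendon, endothelial cells and macrophages in the collagen differences was not tested. Of 18 tested hydroxylation and folding genes, 9 were higher and 6 lower in heart than in soleus, and 9 and 3 against quadriceps. Over the 5 pathway lists, 34.8% of 69 tested genes were higher and 30.4% lower than in soleus. Against quadriceps these shares were 40.6% and 23.2%. Among collagen-modifying genes, Plod2 was 3.21-fold and 4.43-fold higher in heart and Serpinh1, the collagen chaperone HSP47, 1.65-fold and 1.53-fold higher. Lox was 1.85-fold and 2.13-fold lower (limma adjusted p at most 0.00464 for these genes). Against soleus, P3h2 was 4.16-fold lower and Tmem38b of the same list 3.73-fold lower, both called.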

How the data were processed

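Deposited log2 values, made by the authors with RMA per the submitters' processing notes, were used for all 18 arrays without further normalization. Neither the RMA version nor which arrays were processed as 1 set is stated in the sources used here. RMA corrects background, quantile-normalizes and summarises probes, which compresses differences of dim genes. Of 35556 probe sets, 21789 named 1 gene. The 12146 unlisted probe sets and the 1621 with several genes were not used. Symbols of 21698 probe sets were updated with a RefSeq gene table of GRCm38.p6. The brightest probe set stood for a gene (2 collagens have 2).

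Tests used limma 3.58.1 in R 4.3.3. The fits of 4 of the comparisons were also run on simulated data. Those data held no animal effect, so they cannot check the animal block. The 12 muscle arrays were fitted with a mean per group (4) and a random effect of animal (duplicateCorrelation, 0.17), the 6 hearts alone, and heart against muscle over 18 arrays without a block. The deviations of the 6 animal pairs correlated at r from -0.0005 to 0.377, with 4 above 0.1. This left 13318, 13431 and 13373 tested genes. Values are given as difference ± standard error of the fit. Replicates are labelled biological. Arrays have no read depth, so their number, 3 per group, limits precision. Members and lists were chosen with earlier results of these data known. Named by rule were called members (the 12 largest where more), the largest rise and fall where none was called, and the main chains of types I, III, IV, V, VI, XV and XVIII. Col4a1 against quadriceps, Col8a2, Col11a1 against quadriceps, the members in the animal order and their partners were named after their values were seen. Alternatives were other filters, probe-set rules, normalizations, priors, weights, blocks and leaving out each array, and each mouse, the last added after seeing the data. Proteins and genome sequence outside the promoter table were not used here.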

Additional observations from a re-analysis of the deposited data

Results flagged for a closer look

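In Col6a6 every KO soleus array was above every WT soleus array while every KO quadriceps array was below every WT quadriceps array, as in 0.323% of all tested genes, with the nearest soleus arrays at 7.535 and 7.534. The KO effect in soleus minus that in quadriceps was 0.2853 on the log2 scale (± 0.08 standard error, limma adjusted p = 0.634), and it was called in 0 of 26 alternatives, with values from 0.22 to 0.36 and an adjusted p from 0.364 to 1.00. A second probe set of the gene gave 0.005 for KO minus WT in soleus and -0.16 in quadriceps.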

How the results depend on the processing

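The count of called collagens was 0 in every alternative for KO minus WT in soleus (21 alternatives), KO minus WT in quadriceps (21), their difference (26) and FG-4497 in heart (13). These include a replicate block, by title number within each muscle and in heart and by animal number for the difference, which gave 0. Title numbers do not pair the arrays: same-numbered deviations correlated between -0.285 and 0.175. Named but uncalled differences changed sign in 55 of 251 alternative values in soleus, 27 of 251 in quadriceps and 6 of 142 in heart. For WT soleus against WT quadriceps, the count of 5 became 2 without a filter on low values and 3 without the animal block, ranged from 2 to 4 when an array or a mouse was left out, and reached 7 with quantile normalization repeated. For KO soleus against KO quadriceps, the count of 4 became 2 without the animal block, ranged from 2 to 4 when an array or a mouse was left out, and reached 5 with quantile normalization repeated. With the animal number as a fixed replicate block the counts were 5 and 4, and which members passed changed as given above. Heart against soleus kept 15 to 22 calls and heart against quadriceps 13 to 19, over 14 alternatives each. No called value changed sign. For KO minus WT, the number of arrays limits what differences below 2-fold can show for the most variable collagens, fibrillar and other. In each muscle the intervals of 34 of 40 collagens stayed within 1.5-fold and those of all 40 within 2-fold. These intervals rest on limma's variance, pooled over genes and shared by the muscle groups.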
